A study of Mus musculus with 19 samples.

Results

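RNA sequencing of the mouse heart was compared with 6 other tissues of wild-type mice: tibialis anterior muscle (TA), brain, liver, white adipose tissue (WAT), brown adipose tissue (BAT) and small intestine. The heart library is 1 of the 19 samples of the study, and it was chosen by its tissue label alone. The study looked for secreted factors made mainly by skeletal muscle and followed Musclin, such a factor, in adipose tissue. Each tissue is represented by 1 library without a biological replicate, so each difference between heart and another tissue describes 2 libraries, no test was run and the spread between hearts is unknown.

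The 7 tissue libraries came from untreated wild-type C57BL/6J mice on chow, and chow-fed mice of the study were aged from 2 to 8 months, with no age stated for these. Total RNA of heart and of 5 other tissues was extracted with TRIzol and that of WAT with a kit, so extraction method and tissue cannot be told apart for WAT. Values are FPKM for 1 line per gene, and differences were taken on log2(FPKM + 1), a scale that understates the change of genes with low values. The smallest step between low values was 0.0569 FPKM for a transcript of 1 kb in heart and 0.0544 to 0.0611 FPKM in the other 6 tissues.

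Biological spread was known only from elsewhere in the study. In BAT of 3 wild-type control mice kept at 8 °C for 1 week, the median standard deviation over 11504 genes was 0.15 log2 units. In 46 of these genes (0.400%) the highest and lowest of the 3 libraries lay at least 4-fold apart. These mice were in another tissue and condition, so this gives a scale for 1-library differences and no error for the heart.

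Cardiomyocytes take up most of the volume of the heart, beside endothelial cells, fibroblasts, pericytes and blood cells. Their sarcomeres are built from cardiac forms of myosin, actin and troponin and are switched by calcium that the sarcoplasmic reticulum releases and takes back. The adult heart burns mainly fatty acids in a dense network of mitochondria, and it also secretes natriuretic peptides.

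The library labelled heart carried the markers of heart at their highest values. *Myh6*, the alpha myosin heavy chain of the adult mouse heart, had 14088 FPKM in heart, 58.7 in TA, 0.443 in brain, 0.0131 in liver, 0.272 in WAT and 0.0250 in BAT, and is listed at 0 in small intestine. The inhibitory troponin subunit *Tnni3* had 4138 FPKM in heart, 30.6 in TA, 2.61 in brain, 0.370 in liver, 2.22 in WAT, 0.608 in BAT and 2.42 in small intestine. *Nppa*, the precursor of atrial natriuretic peptide, had 95.1 FPKM in heart and 1.30 in TA, and is listed at 0 in the other 5 tissues. Heart thus exceeded the next tissue, TA for each of the 3 genes, by at least 41.7-fold on the FPKM + 1 scale. No thymus or lung marker was seen, since heart is listed at 0 for 4 of 4 thymus markers (*Ptcra*, *Rag1*, *Dntt*, *Cd8b1*) and 5 of 5 lung markers (*Sftpc*, *Sftpa1*, *Sftpb*, *Scgb1a1*, *Ager*).

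Few genes were specific to heart among these tissues. Of 18327 genes with at least 1 FPKM in at least 1 library, 80 (0.437%) were at least 4-fold higher in heart than in every other tissue, and these are called heart-enriched. Heart had the highest value of the 7 tissues, at any fold, for 669 genes (3.65%) and the lowest for 1975 (10.8%). The same 4-fold rule gave 142 genes in TA, 1421 in brain, 468 in liver, 188 in WAT, 27 in BAT and 932 in small intestine. Skeletal muscle set most of the limit, because leaving out TA raised the heart-enriched count from 80 to 208 (1.13% of genes tested). Of the 128 genes gained, 86 were higher in TA than in heart, and 79 lay within 2-fold of TA.

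**Figure D1:**
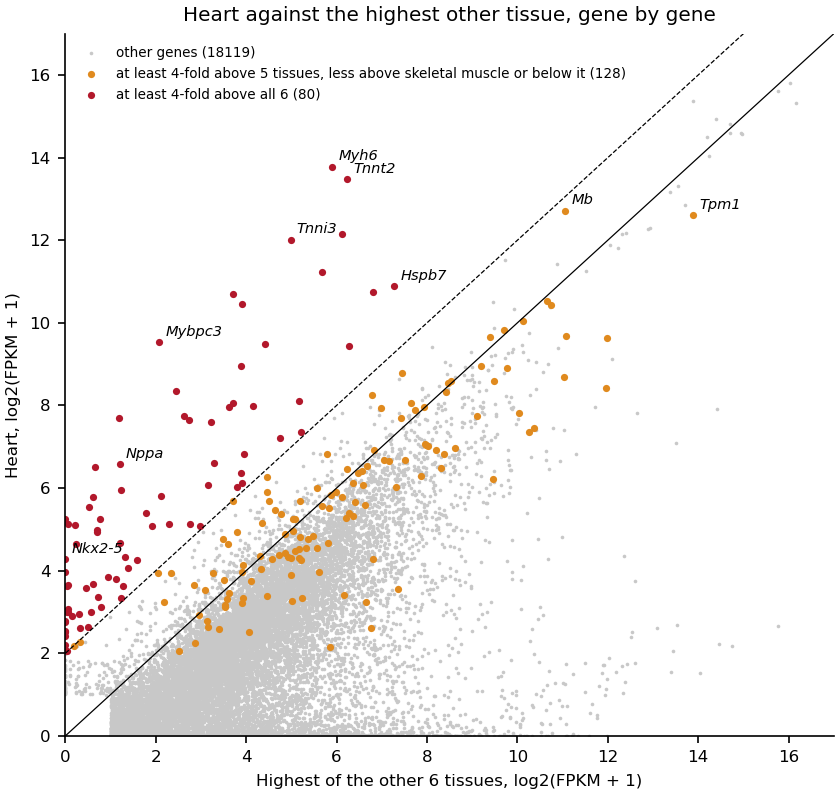
Each point is 1 gene, with log2(FPKM + 1) in heart on the vertical axis and the highest log2(FPKM + 1) among the other 6 tissues on the horizontal axis. The 80 heart-enriched genes lie above the 4-fold line, led by *Myh6* at 14088 FPKM in heart and 58.7 in TA.

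The heart transcriptome as a whole lay closest to TA and BAT. Across genes, log2 values of heart correlated with those of TA at 0.864, BAT 0.839, WAT 0.776, liver 0.621, brain 0.616 and small intestine 0.601, which is descriptive because genes are not independent. The median gene was 0.18 log2 units lower in heart than in the median of the other 6 tissues, and gene lists below are read against this value of −0.18. Transcripts from the mitochondrial genome made up 53.6% of summed FPKM in heart and 53.8% in BAT, against 29.2% in TA and 13.3 to 21.8% in the other 4 tissues. *mt-Co1* was the most abundant transcript of heart at 57163 FPKM, and the 10 highest were mitochondrial genes or, in the case of *Gm10925*, a near-identical nuclear copy of *mt-Atp6* whose own level is uncertain. Since FPKM is a share of all reads, a library rich in mitochondrial transcripts shows lower values for the rest, and several comparisons with heart depend on scaling.

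The depositors' values were therefore also rescaled in 3 ways: to an equal sum per library (TPM), by the median ratio to the average library, and to an equal sum without mitochondrially encoded genes. The median of all genes shifted by −0.25, 0.18 and 0.10 log2 units, respectively. The heart-enriched count became 88, 107 and 94, and 75, 78 and 80 of the original 80 genes remained. The number of genes highest in heart at any fold, 669 as reported, became 417, 1350 and 912, so this count depends strongly on scaling. Of 143 genes named here or in the gene lists that were highest in heart, 123 stayed highest in heart under all 3 scalings, and the others are marked where they matter.

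**Figure D2:**
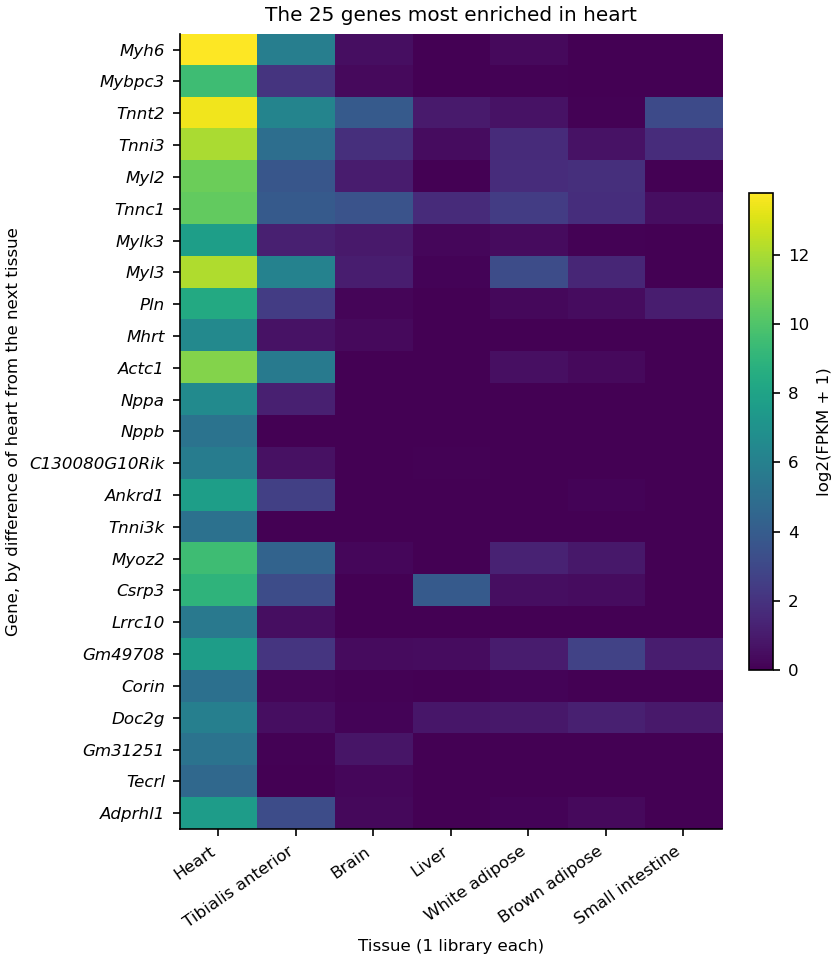
Heat map of log2(FPKM + 1) for the most heart-enriched genes (rows) in the 7 tissues (columns). *Nppb* is listed at 0 outside heart, whereas *Tnnt2* retains 74.4 FPKM in TA.

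Genes of the contractile apparatus led the heart-enriched set. Of 36 sarcomere genes and genes of its anchors, 15 were heart-enriched (41.7% against 0.437% of all genes). At least 4-fold higher in heart than in all tissues except TA were 32, beside 1.13% of all genes. The median difference from the other tissues was 5.74 log2 units. *Mybpc3*, the cardiac myosin-binding protein C, had 737 FPKM in heart, 3.21 in TA, 0.280 in brain and 0.0391 in WAT, and is listed at 0 in liver, BAT and small intestine. *Tnnt2*, cardiac troponin T, was second in abundance only to *Myh6* among the 80 genes, with 11404 FPKM in heart, 74.4 in TA, 13.7 in brain, 1.02 in liver, 0.586 in WAT, 0.0451 in BAT and 7.68 in small intestine. *Tnnc1*, the troponin C of heart and slow muscle, had 1411 FPKM in heart, 14.0 in TA, 10.4 in brain, 2.26 in liver, 4.38 in WAT, 2.53 in BAT and 0.401 in small intestine. All 3 genes fell far below heart in every other tissue, including the fast TA muscle.

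The 250 bases upstream of an annotated start of *Mybpc3* (RefSeq GRCm38.p6, chr2:91117894-91118143, plus strand) are shown because they hold 1 of 3 MEF2 boxes found in promoters of heart-enriched genes, with the box in capitals. A stretch is also shown for *Tnnt2* (chr1:135836084-135836333, plus strand), with a GATA site and an M-CAT site (CATTCC) in capitals, and for *Tnnc1* (chr14:31208062-31208311, plus strand), with an M-CAT site in capitals.
Mybpc3: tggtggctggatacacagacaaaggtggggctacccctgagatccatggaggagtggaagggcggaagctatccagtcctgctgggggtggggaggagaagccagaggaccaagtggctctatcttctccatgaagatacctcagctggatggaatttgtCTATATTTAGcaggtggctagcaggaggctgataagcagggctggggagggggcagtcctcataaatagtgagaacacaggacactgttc
Tnnt2: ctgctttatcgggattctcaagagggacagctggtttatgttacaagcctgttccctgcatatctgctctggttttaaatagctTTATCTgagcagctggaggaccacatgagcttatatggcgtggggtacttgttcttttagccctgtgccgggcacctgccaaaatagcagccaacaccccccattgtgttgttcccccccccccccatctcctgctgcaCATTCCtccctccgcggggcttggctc
Tnnc1: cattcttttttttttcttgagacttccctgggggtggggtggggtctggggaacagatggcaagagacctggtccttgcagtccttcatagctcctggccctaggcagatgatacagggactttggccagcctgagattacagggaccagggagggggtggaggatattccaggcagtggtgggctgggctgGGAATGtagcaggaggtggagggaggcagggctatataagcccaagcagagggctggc

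A site match on either strand describes the sequence, and no activity was measured. Promoters were matched for 56 of the 80 heart-enriched genes. The MEF2 box occurred in 3 of their 75 promoters (4.0%) against 0.508% of 32851 promoters of 27025 genes, and in 14 of 189 promoters (7.41%) of genes enriched outside skeletal muscle. The CArG box occurred in 4 (5.33% against 1.47%), the M-CAT site CATTCC in 14 (18.7% against 12.6%) and the GATA site AGATAA in 13 (17.3% against 9.99%). The TATA box TATAAA (12 promoters, 16.0% against 12.4%), the NKX2-5 site TNAAGTG (8, 10.7% against 10.1%) and the estrogen-related receptor site TCAAGGTCA (1, 1.33% against 0.387%) were also counted, and none of these shares was tested.

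Myosin heavy chain RNA in heart was almost wholly that of the alpha form. *Myh6* supplied 98.0% of summed myosin heavy chain FPKM in heart, *Myh7* 1.75% and *Myh7b* 0.237%, whereas *Myh4* supplied 87.2% in TA. *Myh7*, the beta or slow chain, had 251 FPKM in heart, 8.41 in TA, 16.7 in brain, 0.331 in liver, 13.1 in WAT, 9.29 in BAT and 0.845 in small intestine. *Myh7b* had 34.1 FPKM in heart, 1.80 in TA, 3.88 in brain, 0.0499 in WAT, 0.0631 in BAT and 0.344 in small intestine, and is listed at 0 in liver. Each of these 3 chains carries a microRNA hairpin in an intron, the only hairpins found in introns of the 80 genes: *Mir208a* in *Myh6*, *Mir208b* in *Myh7* and *Mir499* in *Myh7b*. The mature microRNAs were not measured here, and their hairpin lines, at 0.205, 0.197 and 0 FPKM in heart, do not give their level.

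The mature forms are printed to show that the seeds of the alpha and beta pair are the same, with the seed in capitals (RefSeq GRCm38.p6; miR-208a-3p chr14:54949072-54949093, minus strand; miR-208b-3p chr14:54975710-54975731, minus strand; miR-499-5p chr2:155622893-155622913, plus strand). The first 2 share the seed UAAGACG, and miR-499-5p differs from it in the last base, UAAGACU.
miR-208a-3p: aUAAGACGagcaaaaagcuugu
miR-208b-3p: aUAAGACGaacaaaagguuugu
miR-499-5p: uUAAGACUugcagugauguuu

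Each of 6 other filament families examined was also held by 1 cardiac member. Shares in heart were 99.8% for the regulatory light chain *Myl2*, 99.4% for the essential light chain *Myl3*, 99.9% for *Tnni3*, 99.8% for *Tnnt2*, 99.6% for *Tnnc1* and 94.6% for *Actc1*. Shares within 1 library do not depend on scaling. In TA the same members held 0.346, 1.08, 0.272, 0.271, 0.0253 and 0.425%, and fast or skeletal forms held nearly all the rest. The largest foreign share in heart was skeletal alpha-actin, *Acta1*, at 5.37% of striated muscle actin. *Acta1* nonetheless had 136 FPKM in heart against 11741 in TA.

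**Figure D3:**
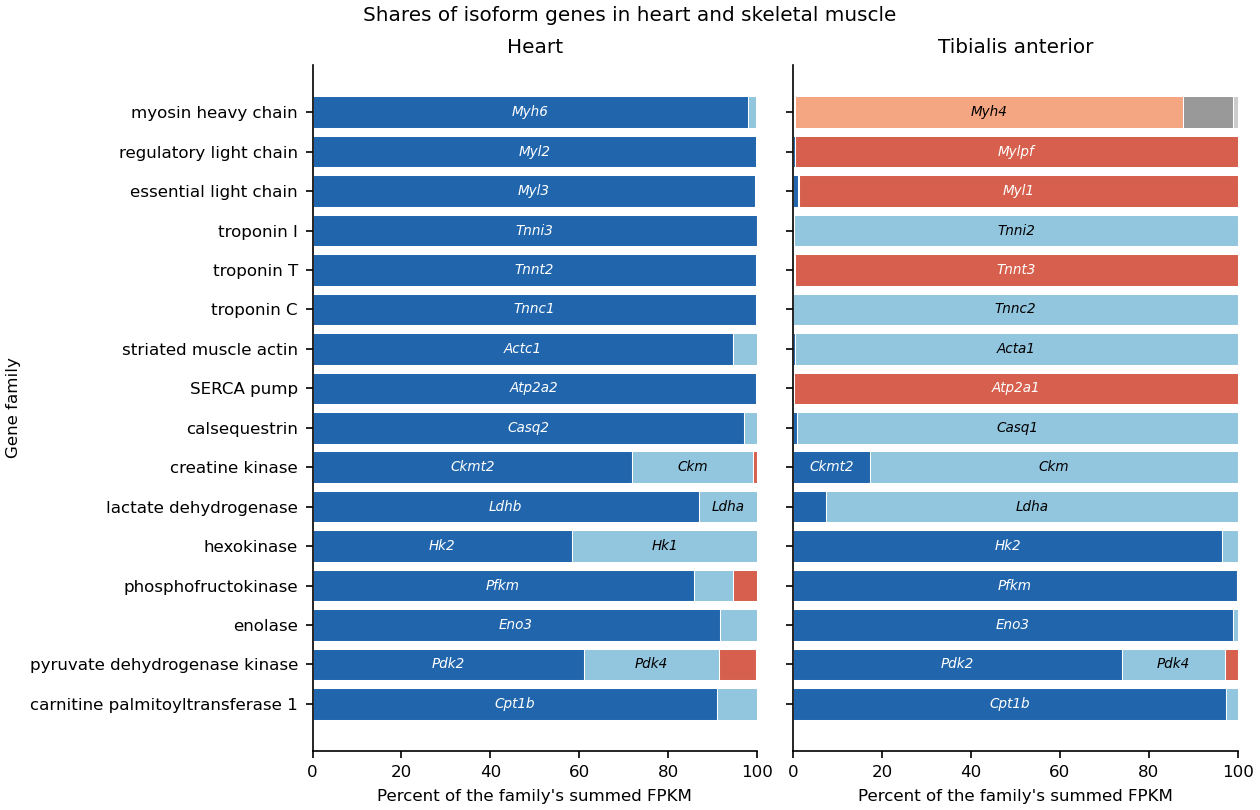
Bars give the percentage of summed FPKM of a gene family held by each member, in heart and in TA. *Myh6* holds 98.0% of myosin heavy chain in heart and *Myh4* 87.2% in TA.

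Fast skeletal muscle genes were almost absent from heart. All 13 fast markers were highest in TA under every scaling, and 12 of them had less than 10 FPKM in heart. *Tnnc2* had 5.34 FPKM in heart and 55389 in TA, and *Tnnt3* had 3.51 and 27391. TA is a fast muscle, and slow skeletal muscle was not among the tissues, so heart-specific and slow-muscle expression cannot be told apart for genes such as *Myh7*, *Myl2*, *Myl3* and *Tnnc1*.

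Other sarcomere genes were shared between heart and TA. *Ttn*, the giant elastic filament, had 40.9 FPKM in heart and 76.8 in TA, and *Tcap*, its cap at the Z-disc, had 826 and 2172. *Tpm1* had 6236 FPKM in heart and 15149 in TA. *Myom1* and *Myom2*, proteins of the M-band, had 321 and 383 FPKM in heart against 343 and 367 in TA, differences too small to keep their direction under every scaling. These genes mark striated muscle in general, and each was at least 4-fold higher in heart than in the 5 tissues without TA. *Rbm20*, the factor that sets splicing of titin, chosen after the values were seen, leaned to heart with 76.1 FPKM against 21.0 in TA and at most 1.57 elsewhere.

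Several regulators of the sarcomere were also heart-enriched. *Mylk3*, the kinase of cardiac myosin light chain, had 208 FPKM in heart, 1.27 in TA, 0.904 in brain, 0.180 in liver, 0.331 in WAT and 0.0439 in BAT, and is listed at 0 in small intestine. *Tnni3k*, a kinase that binds troponin I, had 34.3 FPKM in heart and 0.0373 in TA, and is listed at 0 in the other 5 tissues. Both enzymes were thus nearly confined to heart, although their FPKM stood far below that of their substrates. *Myoz2*, a Z-disc protein that binds calcineurin, had 722 FPKM in heart and 20.3 in TA. *Csrp3*, the muscle LIM protein, had 493 FPKM in heart, and its next tissue was liver at 13.9 rather than TA at 8.35. *Lmod2*, which lengthens thin filaments, had 690.1 FPKM in heart and 76.4 in TA. The small heat shock protein *Hspb7*, also chosen after the values were seen, was the most abundant heart-enriched gene outside the filaments, with 1897 FPKM in heart, 154 in TA, 0.531 in brain, 0.0585 in liver, 62.4 in WAT, 2.79 in BAT and 8.84 in small intestine.

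**Figure D4:**
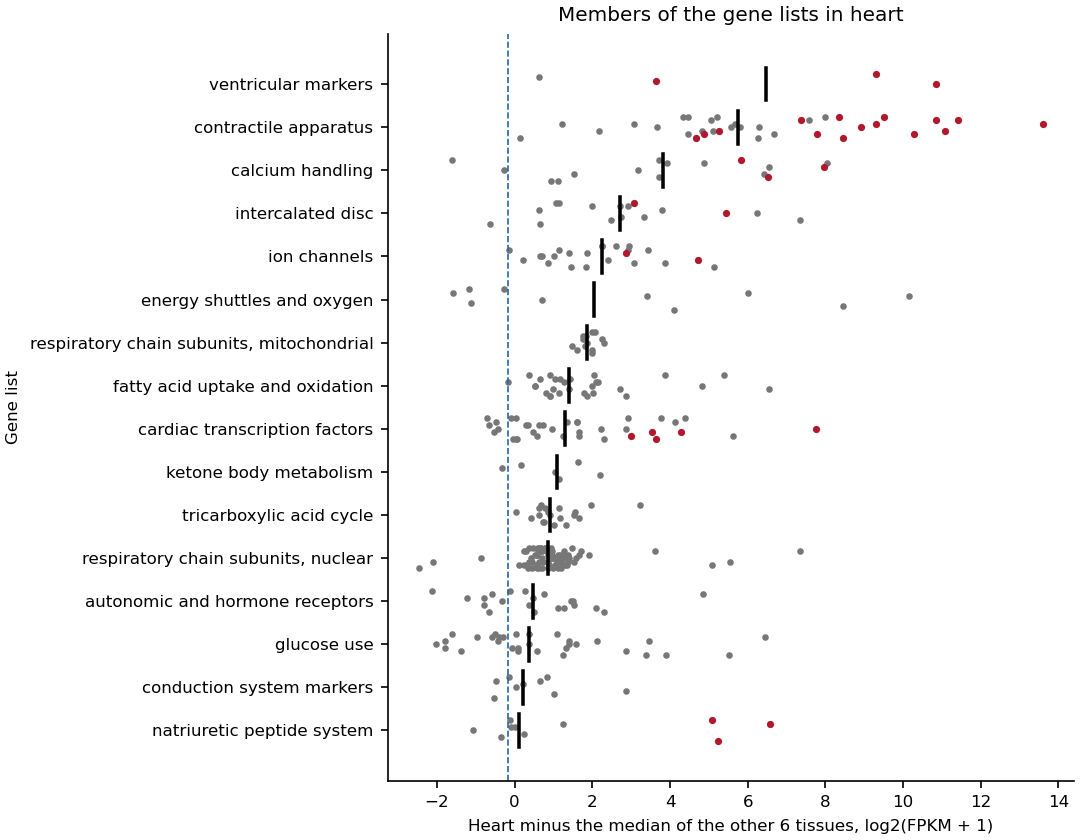
Points give log2(FPKM + 1) in heart minus the median of the other 6 tissues for members of functional gene lists, beside the median of all genes tested at −0.18. The contractile list has a median of 5.74 and natriuretic peptide genes 0.12.

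Calcium handling combined 3 heart-enriched genes with components shared with muscle or brain. Of 16 genes tested, 3 were heart-enriched (18.75% against 0.437% of all genes), and the median difference was 3.82. Heart was highest for 6 (37.5% against 3.65%) and second for 7. Under TPM, median ratio and without mitochondrial genes it was highest for 6, 9 and 10. *Atp2a2*, the pump that returns calcium to the sarcoplasmic reticulum, had 1709 FPKM in heart, 9.28 in TA, 111 in brain, 19.8 in liver, 24.3 in WAT, 35.2 in BAT and 48.3 in small intestine. It held 99.8% of the pump family in heart, and *Atp2a1* held 99.8% in TA. *Pln*, which restrains this pump, had 324 FPKM in heart, 4.42 in TA, 0.125 in brain, 0.235 in WAT, 0.392 in BAT and 1.19 in small intestine, and is listed at 0 in liver. The *Pln* value is uncertain to the extent that *Pln* shares exon bases with *Cep85l* and *Gm47644* in counts made without strand. *Casq2*, the cardiac calcium store protein, had 249.7 FPKM in heart and 11.3 in TA, and held 97.0% of calsequestrin in heart.

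The release channel and the entry channel were shared with brain. *Ryr2* had 99.0 FPKM in heart, 50.2 in brain and 0.0475 in TA. *Cacna1c*, the pore of the L-type channel, had 21.7 FPKM in heart, 6.17 in brain and 0.284 in TA, and *Slc8a1*, the sodium-calcium exchanger, 30.7, 9.82 and 2.56. All 3 stayed highest in heart under every scaling, and none reached the 4-fold line as reported. Under the median ratio 5 calcium handling genes reached it rather than 3. *Trdn* (225 FPKM in heart, 1045 in TA) was higher in TA, and *Hrc* (1055 and 1117) and *Jph2* (55.8 and 58.1) were near equal. *Rrad*, a small GTPase that holds back the L-type channel, outside the list and chosen after the values were seen, was heart-enriched with 54.9 FPKM in heart, 1.60 in TA, 0.457 in brain, 3.32 in WAT, 0.799 in BAT and 1.72 in small intestine, and is listed at 0 in liver. *Sln*, the atrial counterpart of *Pln*, had only 0.645 FPKM in heart.

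Channels of the cardiac action potential were rarely exclusive to heart. Of 23 channel genes, heart was highest for 8 (34.8% against 3.65% of all genes) and second for 11. Brain was highest for 10 (13, 8 and 10 under TPM, median ratio and without mitochondrial genes). *Kcnj5*, a subunit of the acetylcholine-gated potassium channel, was heart-enriched and had 6.75 FPKM in heart, 0.0121 in TA, 0.226 in brain, 0.106 in liver and 0.105 in small intestine, and is listed at 0 in WAT and BAT, whereas its partner *Kcnj3* had 3.76 in heart and 6.22 in brain. Under the same 3 scalings the number highest in heart was 5, 11 and 9. Brain was also highest for 5439 of all 18327 genes tested (6360, 4821 and 6511). *Kcnip2* (37.4 FPKM in heart, 32.8 in brain), *Kcnh2* (14.7 and 12.9) and *Abcc8* (8.12 and 7.74) were among those that passed to brain under TPM. The potassium channel subunit *Kcng2*, outside this list and chosen after the values were seen, was heart-enriched with 12.9 FPKM against at most 1.18 elsewhere.

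Intercalated disc genes were shared with several tissues. Of 16 tested, 2 were heart-enriched (12.5% against 0.437% of all genes), with 4 under the median ratio and 3 without mitochondrial genes. Heart was highest for 6 (37.5% against 3.65%), and for 5, 10 and 7 under TPM, median ratio and without mitochondrial genes. As reported, WAT was highest for 4, TA for 3, small intestine for 2 and brain for 1. *Dsp*, the plaque protein of desmosomes, had 225 FPKM in heart, 68.1 in small intestine and 14.9 in liver, and no more than 0.421 in the other 4 tissues. *Gja1*, the main gap junction protein of ventricle, had 114 FPKM in heart, 5.91 in TA, 43.3 in brain, 1.37 in liver, 20.8 in WAT, 31.2 in BAT and 12.5 in small intestine. *Cdh2* had 91.5 FPKM in heart, 37.3 in liver and 34.6 in brain. The heart-enriched members were *Ctnna3* (7.73 FPKM in heart, at most 0.722 elsewhere) and *Popdc2* (81.5 FPKM in heart, 13.8 in TA). *Myzap*, a disc protein outside the list and chosen after the values were seen, had 95.6 FPKM in heart and at most 8.77 elsewhere.

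The hormones of the heart were specific, and their receptors were not. *Nppb*, precursor of brain natriuretic peptide, had 37.0 FPKM in heart and is listed at 0 in the other 6 tissues. *Corin*, the protease that cleaves the *Nppa* product, had 33.5 FPKM in heart, 0.151 in TA, 0.0477 in brain and 0.103 in WAT, and is listed at 0 in liver, BAT and small intestine. With *Nppa*, 3 of 10 genes of the natriuretic system were heart-enriched (30.0% against 0.437% of all genes). The same 3 were highest in heart (30.0% against 3.65%). The other 7 were highest elsewhere, and the list median was 0.12 against −0.18 for all genes. The receptor *Npr1* had 4.04 FPKM in heart against 24.3 in BAT. The clearance receptor *Npr3* had a heart value 48.7-fold below that of WAT, at 195 FPKM. *Ostn*, which encodes Musclin, a ligand of this receptor, is listed at 0 in heart.

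*Nppa* and *Nppb* lie within 100 kb of each other on chromosome 4. The bases upstream of *Nppa* (RefSeq GRCm38.p6, chr4:148000472-148000721, plus strand) are shown because they hold a TATA box and an NKX2-5 site, in capitals.
Nppa: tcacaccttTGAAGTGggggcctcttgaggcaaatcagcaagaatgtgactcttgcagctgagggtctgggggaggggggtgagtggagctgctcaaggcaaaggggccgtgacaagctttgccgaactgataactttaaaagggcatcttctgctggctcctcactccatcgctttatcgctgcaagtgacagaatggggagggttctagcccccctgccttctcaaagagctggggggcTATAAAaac

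Transcription factors of the cardiac programme ranged from exclusive to shared. Of 36 factors and cofactors, 5 were heart-enriched (13.9% against 0.437% of all genes), and the median difference was 1.30. Heart was highest for 12 (33.3% against 3.65%), and for 11, 17 and 16 under TPM, median ratio and without mitochondrial genes. *Nkx2-5* had 18.3 FPKM in heart and is listed at 0 in the other 6 tissues. *Irx4*, a ventricular homeobox factor, had 11.5 FPKM in heart and 0.0343 in brain, and is listed at 0 in the other 5 tissues. *Tbx20* had 7.04 FPKM in heart, 0.0123 in TA and 0.0429 in liver, and is listed at 0 in the other 4 tissues. *Myocd*, the coactivator of SRF in heart and smooth muscle, had 11.3 FPKM in heart and 1.42 in small intestine, which is rich in smooth muscle. *Ankrd1*, a stretch-responsive cofactor, had 214 FPKM in heart, 5.20 in TA and 0.107 in BAT, and is listed at 0 in the other 4 tissues.

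Other factors of heart development were shared with 1 or 2 tissues. *Gata4* had 23.1 FPKM in heart, 38.5 in small intestine and 4.04 in liver, and heart passed small intestine only under the median ratio. *Tbx5* had 12.6 FPKM in heart and 6.66 in BAT, and at most 0.122 elsewhere. *Hand2* had 24.8 FPKM in heart and 6.70 in liver. *Hopx* had 43.1 FPKM in heart and 15.8 in small intestine. *Mef2c*, a factor of all striated muscle, favoured TA with 98.5 FPKM against 15.4 in heart. *Isl1*, a progenitor factor, is listed at 0 in heart, and *Hand1* (0.0273 FPKM) and *Gata5* (0.0868) were close to it.

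Ventricular transcripts outweighed atrial ones. *Myl2*, the ventricular light chain, had 1656 FPKM in heart, 12.1 in TA, 1.06 in brain, 2.30 in WAT and 2.58 in BAT, and is listed at 0 in liver and small intestine. Its atrial counterpart *Myl7* had 3.52 FPKM in heart, and *Myl2* held 99.8% of regulatory light chain. *Myl4*, the other atrial chain, had 12.7 FPKM in heart against 4536 for *Myl3*. *Bmp10*, a factor of the right atrium, is listed at 0 in heart. Of 8 atrial markers 5 reached 1 FPKM in heart, with a sum of 120.1 FPKM led by *Nppa*, beside 6207 FPKM for 4 ventricular markers. Which chambers were dissected is not given in the sources used here, and the part of each chamber was not tested.

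Most conduction markers were faint, whereas most genes of the fetal or stressed heart were expressed. Of 10 conduction markers, 4 reached 1 FPKM in heart, with *Hcn4* at 1.68, *Gja5* at 1.28, *Tbx3* at 2.22 and *Irx3*, also a gene of working ventricle, at 14.4. Brain was highest for 6 of 9 tested (5 under the median ratio). Of 7 genes known to rise in fetal or stressed heart, 6 reached 1 FPKM and 4 were heart-enriched (57.1% against 0.437% of all genes). These 4 were *Nppa*, *Nppb*, *Myh7* and *Ankrd1*, while *Tnni1*, the fetal troponin I, had 0.256 FPKM. Whether the 4 heart-enriched genes were above the level of an unstressed adult heart was not tested, since heart is represented by 1 library.

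Long noncoding RNAs made up a larger part of the heart-enriched set than of all genes. Of the 80 genes, 24 were not protein-coding (11 lincRNA, 8 antisense, 4 processed transcripts and 1 unclassified), so protein-coding genes were 70.0% beside 84.4% of genes tested. *Mhrt*, transcribed against *Myh7*, had 89.7 FPKM in heart, 0.572 in TA and 0.284 in brain, and is listed at 0 in the other 4 tissues. It shares 484 exon bases, 39.9% of its length, with *Myh7* on the opposite strand, and counting without strand leaves its value uncertain. *Gm31251* (37.1 FPKM), which shares 41.9% of its length with *Myh7*, is uncertain for the same reason. *Hand2os1*, which overlaps *Hand2* and is uncertain too, had 19.0 FPKM in heart, 1.49 in liver, 0.117 in WAT and 1.15 in small intestine, and is listed at 0 in TA, brain and BAT. In all, 30 of the 80 genes share exon bases with another gene, and 50 remained when such genes were left out. Of 7 long noncoding RNAs known from cardiac studies, 6 were tested, and only *Mhrt* and *Hand2os1* were heart-enriched (33.3% against 0.437% of all genes). *Fendrr* and *Miat* are listed at 0 in heart.

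Heart-enriched genes clustered along chromosomes. A neighbour from the same set within 100 kb was found for 12 of 80 (15.0%), beside 295 of 18223 other genes (1.62%) that had a heart-enriched gene within that distance. The largest of 4 clusters held *Myh6*, *Mhrt*, *Myh7*, *Gm17428* and *Gm31251* on chromosome 14. The others were *Actc1* with *C130080G10Rik* and *A530058N18Rik* on chromosome 2, *Nppa* with *Nppb*, and *Ankrd1* with *Gm32027* on chromosome 19. Not all neighbours are separate values, because *C130080G10Rik* (53.9 FPKM) and *A530058N18Rik* (24.4 FPKM) share 1001 exon bases on the same strand, and *Mhrt* and *Gm31251* share exon bases with *Myh7*.

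Further heart-enriched genes lie outside the gene lists, and those described here were chosen after the values were seen. *Tecrl*, an enoyl reductase-like protein linked to inherited arrhythmia, had 23.9 FPKM in heart and 0.175 in brain, and is listed at 0 in the other 5 tissues. *Lrrc10*, a leucine-rich repeat protein of cardiomyocytes, had 45.7 FPKM in heart and 0.434 in TA, and is listed at 0 in the other 5 tissues. *Adprhl1*, related to ADP-ribosyl hydrolases, had 192 FPKM in heart and 8.35 in TA. These 3 genes were among the 25 most enriched, below the leading sarcomere genes. *Doc2g*, from a family of calcium sensors of secretion, had 61.3 FPKM in heart and at most 1.35 elsewhere, a value that is uncertain because it shares exon bases with *Gm49405*. *Gja3*, best known as a connexin of the lens, had 7.17 FPKM in heart and is listed at 0 in the other 6 tissues. *Mov10l1*, known as a helicase of germ cells, had 7.03 FPKM in heart and 0.0270 in TA, and is listed at 0 in the other 5.

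The stretch upstream of *Tecrl* (RefSeq GRCm38.p6, chr5:83355196-83355445, minus strand) is shown because it holds 3 copies of the GATA site, in capitals.
Tecrl: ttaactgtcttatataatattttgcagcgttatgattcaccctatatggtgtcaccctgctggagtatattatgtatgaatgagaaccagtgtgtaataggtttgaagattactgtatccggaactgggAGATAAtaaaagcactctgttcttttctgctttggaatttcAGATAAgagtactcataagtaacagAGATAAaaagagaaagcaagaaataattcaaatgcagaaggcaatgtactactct

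Calls close to the 4-fold line, which is 2.00 log2 units, could change with a small error. Among those just above it were *Ccdc141* (2.09), *Gm15543* (2.11), *Crip2* (2.14) and *Gm43185* (2.14). Just below it were *Nebl* (1.99), *Gm24474* (1.99), *Car14* (1.97), *Gm6852* (1.97) and *BC002189* (1.96). *Nebl*, a cardiac Z-disc protein, therefore missed the set with 44.7 FPKM in heart and 10.5 in brain.

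Energy metabolism set heart apart from most tissues and not from BAT. None of 29 genes of fatty acid uptake and oxidation and none of 19 of the tricarboxylic acid cycle was heart-enriched. Both lists are too short to tell these counts from the 0.437% of all genes. Their medians, 1.41 and 0.91, stood above the −0.18 of all genes. BAT was highest for 17 of the 29 genes (16, 16 and 18 under TPM, median ratio and without mitochondrial genes) and for 15 of the 19 (13, 11 and 14), beside 1048 of all 18327 genes tested (467, 1295 and 1321). Heart was second for 15 and 13. *Acadm*, the medium-chain dehydrogenase, had 616 FPKM in heart, 165 in TA, 22.6 in brain, 189 in liver, 238 in WAT, 888 in BAT and 84.9 in small intestine. *Cpt1b*, the muscle form of the enzyme that admits fatty acids to mitochondria, had 90.1 FPKM in heart, 154 in BAT and 45.5 in TA, and held 90.9% of its pair with *Cpt1a* in heart.

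Some enzymes of oxidation peaked in heart under every scaling. *Fabp3*, the fatty acid carrier of heart, had 1451 FPKM in heart, 196 in TA, 32.4 in brain, 6.23 in WAT, 705 in BAT and 0.821 in small intestine, and is listed at 0 in liver. *Idh2* had 684 FPKM in heart and 274 in BAT, and *Mdh1* had 248 in heart and 105 in small intestine. *Hadha* (355 FPKM in heart, 305 in BAT) and *Etfdh* (253 and 249) were nearly level in the 2 tissues, at differences of 0.22 and 0.02 log2 units. *Oxct1*, which starts the use of ketone bodies, had 395 FPKM in heart, 165 in BAT and only 2.53 in liver.

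Respiratory chain subunits followed the same order. Of 83 nuclear-encoded subunits tested, BAT was highest for 62, heart for 17 and TA for 4, with heart second for 46. Over all 18327 genes tested, BAT was highest for 1048, heart for 669 and TA for 1006, and for 1295, 1350 and 2747 under the median ratio. The median difference of the 83 subunits was 0.87. Under the median ratio the split became 29 for BAT, 23 for heart and 31 for TA, so the rank of these 3 tissues depends on scaling, while TPM (52, 13 and 8) and leaving out mitochondrial genes (59, 23 and 1) kept BAT ahead. The 13 subunits encoded in mitochondria were highest in BAT for 10 and in heart for 3, and these numbers were reversed under the median ratio.

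Muscle forms of respiratory subunits were split between heart, TA and BAT. *Cox6a2* held 99.2% of its pair in heart and 99.5% in TA but 3.27% in BAT. *Cox7a1* held 91.1% in heart, 89.5% in TA and 88.3% in BAT. *Cox8b* held 24.5% in heart against 57.2% in TA, so for this pair heart kept mostly the general form. *Atp5g1*, a gene for the c subunit of ATP synthase, had 265 FPKM in heart but 2.21 in BAT.

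*Nnt*, the mitochondrial transhydrogenase, was chosen after the values were seen. It has 2 gene lines with shared exons, and the split between them is uncertain. Summed over both lines it had 84.4 FPKM in heart, 2.30 in TA, 3.74 in brain, 10.03 in liver, 7.38 in WAT, 0.612 in BAT and 6.58 in small intestine. The line with 66.3 FPKM in heart is heart-enriched and that with 18.1 is not. Part of the gene is known to be deleted in the C57BL/6J strain, and reads of the missing exons were not examined here.

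Glucose genes were more often highest in TA than in heart, and the forms of some enzymes differed. TA was highest for 13 of 31 genes of glucose use (13, 14 and 11 under TPM, median ratio and without mitochondrial genes), and heart for 3 (2, 5 and 5). Over all genes tested TA was also highest more often than heart, for 1006 against 669, and without mitochondrial genes this order was reversed, at 785 against 912. *Aldoa* had 553 FPKM in heart and 4373 in TA, and *Pfkm* had 204 and 1039. Lactate dehydrogenase RNA in heart was mostly *Ldhb* (86.8%), the form that favours lactate use, whereas *Ldhb* made up 7.38% of it in TA. Hexokinase in heart was split between *Hk2* (58.3%) and *Hk1* (41.7%), while TA had 96.5% *Hk2*. *Slc2a4*, the insulin-dependent transporter, held 96.7% of its pair with *Slc2a1* in heart.

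Myoglobin and *Ckmt2* marked striated muscle, whereas creatine kinase as a whole did not. Its summed FPKM was 1267 in heart, 4800 in TA, 973 in small intestine, 600 in brain, 67.2 in BAT, 42.8 in WAT and 3.05 in liver. Of 10 genes of energy shuttles and oxygen, heart was highest for 2 (20.0% against 3.65% of all genes). Under TPM, median ratio and without mitochondrial genes heart was highest for 1, 1 and 3. As reported, TA was highest for 3, brain and small intestine for 2 each, and liver for 1. Over all 18327 genes tested, TA was highest for 1006, brain for 5439, small intestine for 4962 and liver for 1499. *Mb*, myoglobin, had 6733 FPKM in heart, 2122 in TA, 1.43 in brain, 13.9 in WAT, 13.3 in BAT and 0.167 in small intestine, and is listed at 0 in liver, and stayed highest in heart under every scaling. Mitochondrial creatine kinase, *Ckmt2*, had 911 FPKM in heart and 831 in TA, and TA was higher under TPM and the median ratio. Within each library, however, *Ckmt2* held 71.9% of summed creatine kinase FPKM in heart, and the cytosolic *Ckm* held 82.7% in TA. Creatine kinase RNA of heart was thus mainly that of the mitochondrial form, and neither protein nor enzyme activity was measured.

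Few receptor genes for nerves and hormones were highest in heart, although their share was above that of all genes. Of 21 receptor and signalling genes tested, heart was highest for 3 (14.3% against 3.65% of all genes). The median difference was 0.46 against −0.18 for all genes. None was heart-enriched as reported and 1 was under the median ratio, too few to tell the list from the 0.437% of all genes. *Chrm2*, the muscarinic receptor through which the vagus slows the heart, had 29.3 FPKM in heart, 0.0295 in TA, 7.23 in brain, 0.0681 in liver, 0.0425 in WAT and 2.86 in small intestine, and is listed at 0 in BAT. *Agtr1a*, an angiotensin receptor, had 6.80 FPKM in heart, 0.243 in TA, 4.13 in liver, 3.82 in WAT, 2.91 in BAT and 0.899 in small intestine, and is listed at 0 in brain. The beta receptor *Adrb1* had only 3.25 FPKM in heart against 9.16 in BAT, and *Adrb3* is listed at 0 in heart.

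Cell types other than cardiomyocytes were present at intermediate levels. All 11 endothelial markers exceeded 1 FPKM in heart, with a sum of 242 FPKM led by *Cdh5* (74.5), beside 424 in WAT, 369 in BAT and 115 in TA, and their median difference was 1.01. None was highest in heart as reported, too few genes to tell this count from the 3.65% of all genes, and 3 were under the median ratio. All 10 fibroblast markers exceeded 1 FPKM, with a sum of 441 FPKM in heart led by *Gsn* (248) and 4707 in WAT. All 8 markers of smooth muscle and pericytes exceeded 1 FPKM, led by *Rgs5* at 112 in heart, and *Myh11* had 24.8 in heart against 226 in small intestine. In bulk tissue, fewer cells of a type and less RNA per cell cannot be told apart.

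Markers of lymphocytes, Schwann cells and epicardium were faint in heart, and those of macrophages were present. All 8 macrophage markers were highest in WAT under every scaling, and their median in heart, −0.67, lay below that of all genes, with a sum of 93.5 FPKM in heart led by *Lyz2* (39.6) and 746 in WAT. None of 5 lymphocyte markers reached 1 FPKM in heart. All 4 epicardial markers were below 1 FPKM (*Wt1* 0.639, *Upk3b* 0.128, *Msln* 0.0263, and *Upk1b* listed at 0). The Schwann cell marker *Sox10* had 0.234 FPKM in heart. *Wt1*, *Upk3b*, *Upk1b* and *Msln* were all highest in WAT, where mesothelium is another source of them.

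**Figure D5:**
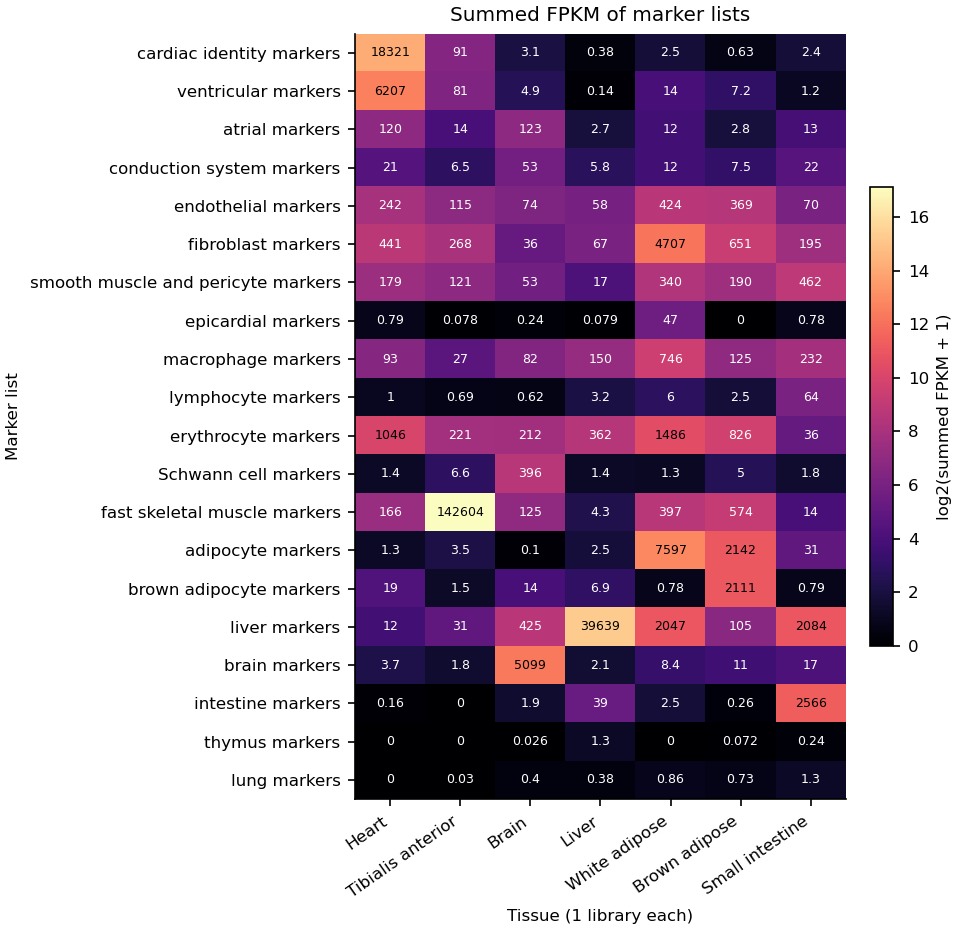
Values of cell-type marker lists in the 7 tissues, as log2 of summed FPKM + 1. Endothelial markers sum to 242 FPKM in heart, and macrophage markers to 93.5.

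Blood and neighbouring fat were checked as sources of RNA from outside the heart wall. Of 6 erythrocyte genes 5 were at or above 1 FPKM in heart, *Slc4a1* is listed at 0, and the sum was 1046 FPKM led by *Hba-a1* (505), beside 1486 in WAT and 221 in TA. Their median difference was 1.91. WAT was highest for 4 of the 5 tested as reported, and heart was highest for 4 under the median ratio, so the rank of heart in red cell RNA depends on scaling. The part of red cells in other differences was not tested. Only 1 of 5 adipocyte markers reached 1 FPKM (*Cidec*, 1.02), with *Adipoq* at 0.219 against 1699 in WAT. Of 4 brown adipocyte markers, *Ucp1* is listed at 0 in heart and *Cidea* had 18.4 FPKM in heart and 1638 in BAT. Of 6 liver markers the most abundant was *Alb*, at 3.65 FPKM in heart and 22399 in liver.

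Genes that respond to handling were not raised in heart, although their place against all genes depended on BAT. The 11 immediate early and heat shock genes had a median difference of −0.69 and a sum of 80.01 FPKM in heart, beside 69.1 in liver and 103 to 347 in the other 5 tissues. Without BAT their median moved to the other side of the median of all genes. *Jun* was the most abundant at 27.4 FPKM, and *Fosb* (0.191) and *Atf3* (0.775) were below 1. None of the 11 was highest in heart, a list too short to tell this count from the 3.65% of all genes. Their part in other differences was not tested.

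At the 4-fold line loss in heart was rarer than gain, and the size of this gap depends on the rule. At any fold, heart was lowest for 1975 genes and highest for 669. With a pseudocount of 0.01 the 4-fold counts were 133 for loss and 151 for gain. Only *Mir22* was at least 4-fold lower in heart than in every other tissue (0.00546% of genes tested), with 0.127 FPKM in heart and 8.86 to 20.2 elsewhere. The hairpin lies within an exon of its host *Mir22hg*, which had 11.5 FPKM in heart and 13.1 to 42.9 elsewhere, so the call is uncertain and mature miR-22 was not measured. Leaving out 1 library raised the count from 1 to 19 without TA, 4 without liver, 3 without BAT, 3 without small intestine and 2 without brain. At 2-fold, 42 genes (0.229%) were lower in heart than everywhere else.

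Some of the genes at least 2-fold lower in heart are described here, chosen after the values were seen and without a gene list. *Fdps*, of the isoprenoid pathway, had 3.27 FPKM in heart, 9.49 in TA, 27.1 in brain, 243 in liver, 12.2 in WAT, 9.31 in BAT and 72.4 in small intestine. *Pmvk* had 4.11 FPKM in heart and 13.1 to 53.9 elsewhere, and *Fdft1* had 16.4 and 35.1 to 77.0. Other genes of isoprenoid and sterol synthesis were not examined as a list, so these 3 enzymes do not describe the pathway. *Pfkfb3*, which sets the level of an activator of phosphofructokinase, had 3.23 FPKM in heart, 41.8 in TA, 12.3 in brain, 15.5 in liver, 289 in WAT, 101 in BAT and 9.82 in small intestine, while its relative *Pfkfb2* had 14.8 FPKM in heart. *Gpd2*, the mitochondrial glycerol phosphate dehydrogenase, had 1.72 FPKM in heart, 18.8 in TA, 14.3 in brain, 5.81 in liver, 7.98 in WAT, 87.7 in BAT and 37.0 in small intestine. *Cd24a*, a surface glycoprotein, had 0.234 FPKM in heart, 98.7 in TA, 5.04 in brain, 3.34 in liver, 6.43 in WAT, 2.07 in BAT and 88.3 in small intestine, and its high value in TA was not tested further.

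The 80 heart-enriched genes carried 7.39% of summed FPKM in heart and 0.121% in TA. They were selected by the 4-fold rule, and the extent of their specificity varied. Of the 80, 35 stayed below 1 FPKM in every other tissue and 10 are listed at 0 in all of them. Every other tissue was exceeded at least 10-fold by 39 and at least 100-fold by 5. Abundant genes nonetheless appeared at a low level elsewhere. Of 25 heart-enriched genes with at least 100 FPKM in heart, 23 exceeded 1 FPKM in TA, 16 in WAT, 12 each in brain, BAT and small intestine, and 9 in liver. Whether these low values arose in the tissue or in handling cannot be told apart with 1 library each.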

How the data were processed

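The authors deposited FPKM per gene for 7 tissues, from reads aligned without strand with HISAT2 2.1.0 after filtering with fastp and Bowtie2. The program that calculated FPKM is uncertain, because the methods name StringTie and the sample labels Cuffdiff. Each of 55573 genes was used once after 287 repeated lines were dropped, and 55394 matched GENCODE annotation of GRCm38. Here log2(FPKM + 1) of heart was compared with the highest, the lowest and the median of the other 6 tissues, in Python 3.11.15 with numpy 2.4.6, pandas 2.3.3 and matplotlib 3.10.9, after a check on simulated data. Named genes were the 25 largest heart-enriched differences, the 10 highest values in heart, the 5 top noncoding genes, 5 genes on each side of the threshold and the members of the lists. Members and lists were chosen with earlier results of these data known. The BAT table gave the yardstick. The table of inguinal WAT holds 6 per-sample columns and the authors' comparison columns (fold changes, p-values and FDR), which were not used here.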

Additional observations from a re-analysis of the deposited data

How the results depend on the processing

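The 3 counts moved with the processing. No called difference of a named gene changed sign, but this was fixed in advance and is no sign of stability. A called gene is at least 4-fold above every other tissue, and no scaling moved heart against another tissue by that much. The number of heart-enriched genes, 80 as reported, was 148 with a pseudocount of 0.1, 151 with 0.01, 207 at 2-fold and 39 at 10-fold, and it ranged from 81 to 208 when 1 of the other libraries was left out. The number enriched outside skeletal muscle, 208 as reported, was 319 with a pseudocount of 0.01, 396 at 2-fold and 111 at 10-fold, and ranged from 208 to 280. The number of depleted genes, 1 as reported, was 33 and 133 with the 2 pseudocounts, 2 under TPM, 42 at 2-fold and 0 at 10-fold, and ranged from 1 to 19. A smaller pseudocount and another fold change the rule itself, and for TPM and the left-out libraries the cause was not tested. Chosen after seeing the data, protein-coding genes alone gave 0 depleted genes, and genes that share no exon base gave 50, 129 and 0. A smaller pseudocount or a library left out cannot remove a heart-enriched gene, whereas TPM kept 75 of the 80 and the median ratio 78. Of 35 list medians, 35 kept their side of the median of all genes under TPM, without mitochondrial genes and with a pseudocount of 0.1, and 34 under the median ratio. All 35 kept it without brain, WAT or small intestine, 34 without TA, 33 without liver, 33 without BAT and 31 with the mean of the other 6 tissues. No paired analysis was possible because each tissue had 1 library. Values near the step of 0.0569 FPKM rest on few reads, and with 1 library per tissue the spread between mice stays unknown.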

Other observations

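Some stress proteins and protein turnover genes of muscle were present in heart and lay within 4-fold of TA. *Hspb7* was also present in TA, at 154 FPKM, but was heart-enriched with 1897 FPKM in heart. *Cryab*, a chaperone of desmin, had 304 FPKM in heart, 109 in TA, 44.7 in brain, 2.04 in liver, 60.8 in WAT, 27.8 in BAT and 2.77 in small intestine, and it was highest in heart under every scaling. *Hspb6* had 808 FPKM in heart and 670.4 in TA, with TA higher under the median ratio. The ubiquitin ligases *Trim63* and *Fbxo32*, known for muscle wasting, had 68.6 and 21.4 FPKM in heart beside 81.5 and 32.7 in TA. *Trim72*, a factor of membrane repair, had 112 FPKM in heart and 54.6 in TA. These genes were chosen after the values were seen.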
